A study of Arabidopsis thaliana with 4 samples.

Results

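The heat shock genes described here were the 98 nuclear protein-coding genes, of 27444 in the RefSeq annotation of TAIR10, whose product name contains heat shock protein, heat shock transcription factor, heat shock factor or HSP20-like. Product names placed 45 of them among the small HSPs, 17 among the heat shock factors (HSFs), 16 among the HSP70s, 4 among the HSP90s and 3 among the HSP60s. HSP101 stood alone in its family, and 12 genes had names that fit none of these families. The rule used names only and no measured value, but it was set with earlier results of these data known. RNA Pol II occupancy was compared between wild-type (WT) and *hyl1-2* plants over these genes, their promoters and the region past their 3′ ends.

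Heat shock proteins are molecular chaperones, which bind unfolded proteins and keep them from aggregating. Small HSPs hold unfolded proteins in a soluble state, HSP70 and HSP90 use ATP to fold them, HSP60 forms a folding chamber in mitochondria, and HSP101 pulls proteins out of aggregates. HSFs are the transcription factors that switch these genes on, by binding heat shock elements in their promoters. In leaves of plants that are not heated, many small HSP genes and HSP101 are known to be nearly silent, while many HSP70 and HSP90 genes serve the cell at all temperatures.

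All plants were *Arabidopsis thaliana* in the Col-0 background, were 21 days old, were grown in soil at 22 °C and received no heat treatment according to the labels. The WT group was Col-0, and the *hyl1-2* group carried a T-DNA insertion that knocks out *HYL1*, the double-stranded RNA-binding partner of DCL1 in miRNA biogenesis. Leaves were crosslinked whole, so each library averages all leaf cell types, and the sources used here do not say how many plants were pooled. Each genotype gave 1 input library, made of sonicated chromatin without antibody, and 1 ChIP library, made with an antibody against total RNA Pol II. With 1 library per condition there was no replicate check, no test between the genotypes was possible, and every interval given below is a 95% interval for counting error only.

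The libraries held between 17734005 reads (WT input) and 37717174 reads (WT ChIP). Reads were counted wherever their extended interval overlapped a window, and were scaled to the library total (RPM). The ratio of ChIP to input was taken within each genotype, and the fold change is the ratio in *hyl1-2* divided by that in WT. Fold changes above 1.2 are called higher and those below 0.8 lower, for windows with at least 10 reads in every library.

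The ChIP libraries were first checked against genes with known activity in leaves. Over 9 leaf genes for Rubisco, chlorophyll-binding proteins and carbon metabolism, the whole-gene ratio ranged from 0.557 to 1.67 in WT and from 1.09 to 5.38 in *hyl1-2*. Over 5 seed storage and oil body genes, it ranged from 1.58 to 2.31 in WT and from 0.992 to 1.42 in *hyl1-2*. Summed over the list, the leaf genes had a ratio of 0.947 in WT and 1.91 in *hyl1-2*, the seed genes 1.83 and 1.15, so the WT ChIP library ranked seed genes above leaf genes, against its label, and *hyl1-2* did not. None of these genes was at 0 reads in any library, and 2 flower genes had summed ratios of 0.635 and 0.586. *HYL1* itself had a whole-gene fold change of 3.19 (2.75–3.71), which checks no label, since an insertion leaves the locus in the genome. With the only WT ChIP library in doubt, a fold change of a heat shock gene and the difference between these 2 libraries cannot be told apart.

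Promoters of 5 members are shown first, because they hold the DNA-encoded part of the heat shock response. HSFA2, HSFA7A, HSP17.4 and AT1G53540 were the members whose 250 bases before the annotated start held a heat shock element, and HSFB2A, which held none, had the highest whole-gene fold change. Sequences were read from the TAIR10.1 reference assembly, 5′ to 3′ on the strand of the gene. Capitals mark a heat shock element, searched on both strands as GAA, any 2 bases, TTC, any 2 bases and GAA, or the same with TTC and GAA exchanged, and, within 60 bases of the start, a TATA box searched as TATAAA on the strand of the gene.
HSFA2, chr2:11135374-11135623, plus strand: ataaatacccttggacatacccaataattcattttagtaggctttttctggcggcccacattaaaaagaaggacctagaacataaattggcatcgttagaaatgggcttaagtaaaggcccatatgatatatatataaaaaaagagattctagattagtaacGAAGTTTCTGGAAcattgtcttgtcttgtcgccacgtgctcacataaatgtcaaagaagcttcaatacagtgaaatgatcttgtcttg
HSFA7A, chr3:19264891-19265140, plus strand: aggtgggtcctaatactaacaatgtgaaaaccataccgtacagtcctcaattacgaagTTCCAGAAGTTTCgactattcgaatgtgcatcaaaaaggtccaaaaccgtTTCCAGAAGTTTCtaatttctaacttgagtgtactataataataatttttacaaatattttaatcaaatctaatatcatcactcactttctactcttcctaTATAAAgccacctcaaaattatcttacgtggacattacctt
HSP17.4, chr3:16984868-16985117, minus strand: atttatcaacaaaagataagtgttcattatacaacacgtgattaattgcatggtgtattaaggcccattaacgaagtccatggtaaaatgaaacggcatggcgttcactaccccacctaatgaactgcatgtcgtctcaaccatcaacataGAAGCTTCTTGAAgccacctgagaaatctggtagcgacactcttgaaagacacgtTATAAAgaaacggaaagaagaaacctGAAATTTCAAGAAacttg
AT1G53540, chr1:19980049-19980298, plus strand: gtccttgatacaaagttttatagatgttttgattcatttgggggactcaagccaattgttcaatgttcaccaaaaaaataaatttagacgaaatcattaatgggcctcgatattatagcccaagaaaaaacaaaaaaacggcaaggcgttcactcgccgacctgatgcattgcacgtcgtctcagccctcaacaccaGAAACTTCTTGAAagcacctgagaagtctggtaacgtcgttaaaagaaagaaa
HSFB2A, chr5:24915557-24915806, plus strand: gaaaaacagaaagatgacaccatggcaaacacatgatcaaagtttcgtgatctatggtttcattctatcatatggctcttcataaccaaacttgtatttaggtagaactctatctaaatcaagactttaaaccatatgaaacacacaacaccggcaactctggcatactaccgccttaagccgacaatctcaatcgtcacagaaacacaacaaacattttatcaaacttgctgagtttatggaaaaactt

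The element was found in 4 of 98 members (4.08%), set beside 106 of 27444 protein-coding promoters of the same length (0.386%). It occurred at 2 places in HSP17.4 and in HSFA7A and at 1 place in each of the other two. The TATA box was found in 10 members (10.2%), set beside 12.7% of all promoters, and HSP17.4 and HSFA7A held both motifs. HSP17.4 and AT1G53540 encode small HSPs, and HSFA2 encodes the factor that prolongs the heat response. A match of these letters describes the sequence, and no match says only that the letters are not in this window. Over the whole gene, 0 of the 4 genes with the element had a fold change above 1.2 and 1, HSFA2, was below 0.8. The median log2 fold change over these 4 genes was −0.08, and over the other 94 members it was −0.11.

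Over the whole gene, the heat shock genes as a group had ratios of ChIP to input near those of other genes. In *hyl1-2*, 4 HSF genes, BIP3 and AT1G54400 stood at the top. The WT ratios come from the ChIP library in doubt above, so they are not read as amounts of RNA Pol II. In whole leaves, more cells of a type that transcribes a gene and more RNA Pol II per cell cannot be told apart. The median ratio over the 98 members, on the log2 scale, was 0.14 in WT and 0.08 in *hyl1-2*, set beside 0.05 and 0.03 over all protein-coding genes tested. In WT only BIP3, which encodes an inducible HSP70 of the endoplasmic reticulum, had a ratio above 2, where 1.65% of all genes did. In *hyl1-2*, 6 members passed 2, namely HSFC1, BIP3, HSFB2A, AT1G54400, HSFA8 and HSFA4A, where 5.28% of all genes did.

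**Figure D1:**
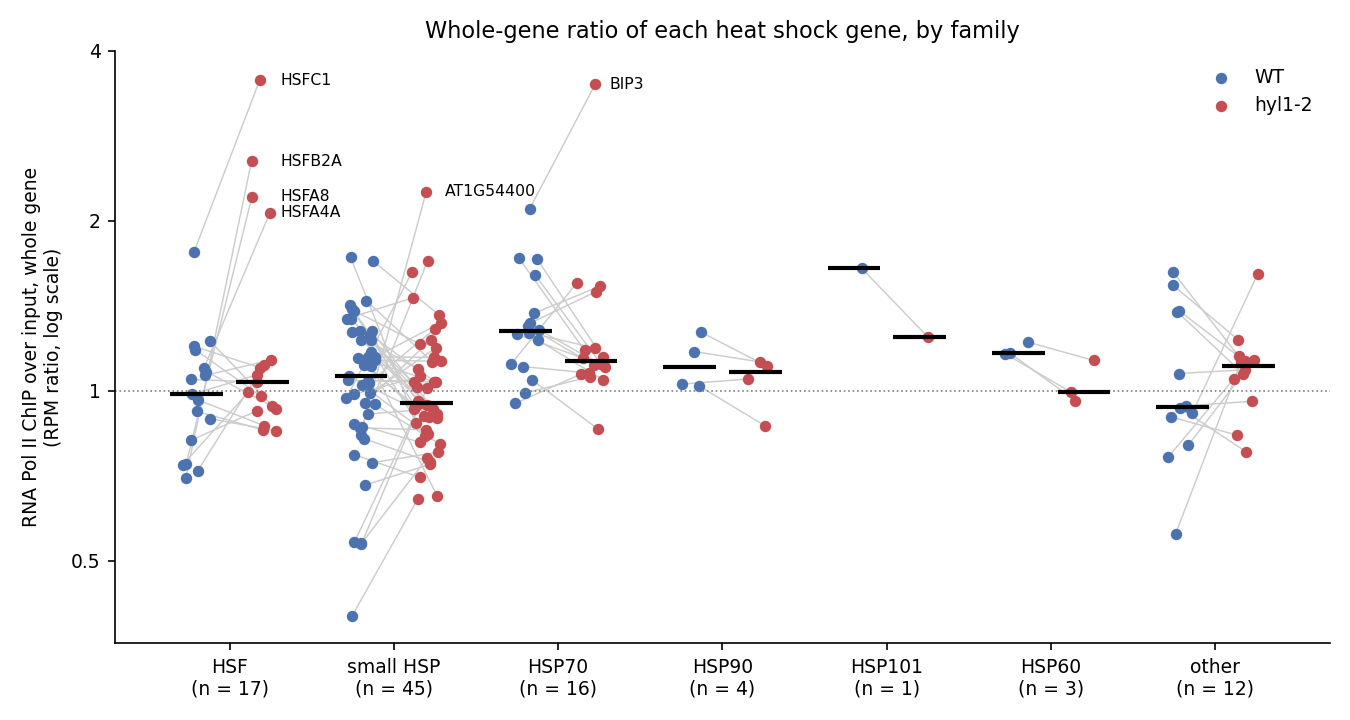
RNA Pol II ChIP over input over the whole gene (RPM ratio, log scale) for each of the 98 genes in WT (blue) and *hyl1-2* (red), by family. Grey lines join the values of a gene and black bars are family medians. The 6 named genes are those above 2 in *hyl1-2*, and 4 of them are HSF genes.

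Family medians of the log2 ratio lay closest between the genotypes in the HSP90s and HSFs, and furthest apart in HSP101. The 45 small HSPs had a median of 0.09 in WT and −0.07 in *hyl1-2*, and the 17 HSFs had −0.02 and 0.05. The HSP70s lay higher in both, with 0.35 in WT and 0.18 in *hyl1-2*. The HSP90s had 0.13 and 0.11, the HSP60s 0.22 and −0.01, and HSP101, a single gene, 0.72 and 0.32. Scaled on intergenic windows in place of all reads, every family median in both genotypes lay higher, and the WT median of small HSPs was 0.86 in place of 0.09.

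In the whole-gene comparison, 22 members (22.4%) were above 1.2 and 20 (20.4%) below 0.8, where the background over all genes was 25.9% and 21.4%. With fold changes centred on the median of all genes the split was 23 against 15, and with intergenic scaling 20 against 28. The median log2 fold change was −0.11, set beside −0.06 over all genes. The interval lay wholly above 1 for 23 members (background 25.2%) and wholly below 1 for 26 (background 27.9%), so the shares lay near the background on both sides. By family, 6 of 17 HSFs, 10 of 45 small HSPs, 2 of 16 HSP70s and 4 of the 12 other genes were above 1.2, and none of the HSP90s, HSP60s or HSP101 was. Below 0.8 were 12 small HSPs, 3 HSP70s, HSP101, HSFA2 and 3 other genes.

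Over the promoter, defined as the 200 bp before the annotated 5′ end, most members were higher in *hyl1-2*, and so were most genes of the genome. Of the 96 members with enough reads, 63 (65.6%) were above 1.2 and 9 (9.38%) below 0.8, where the background was 58.6% and 11.7%. Centred on the median of all genes, which lowers every promoter value by 0.42 on the log2 scale, the split became 38 against 25. The median log2 fold change was 0.48 over members and 0.42 over all genes. Intervals lay wholly above 1 for 29 members (background 30.8%) and wholly below 1 for 1 member, ERD2 (background 2.67%). HSP1 and HSFB1 were not tested there because WT ChIP held 9 and 6 reads. By family, 13 of 16 HSFs, 22 of 44 small HSPs, 11 of 16 HSP70s, 3 of 4 HSP90s, all 3 HSP60s, HSP101 and 10 of 12 other genes were above 1.2. In all, 9 members were higher over the promoter and lower over the gene at once, HSFA2, HSP101, Hsp70b and HSP17.6A among them, where 5.55% of all genes were. The promoter value of Hsp70b was 1.23 (0.731–2.07), with an interval that held 1. Another annotated gene lay in the promoter window for 28 of the 98 members, HSFA2, Hsp70b and HSP17.6A among them.

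**Figure D2:**
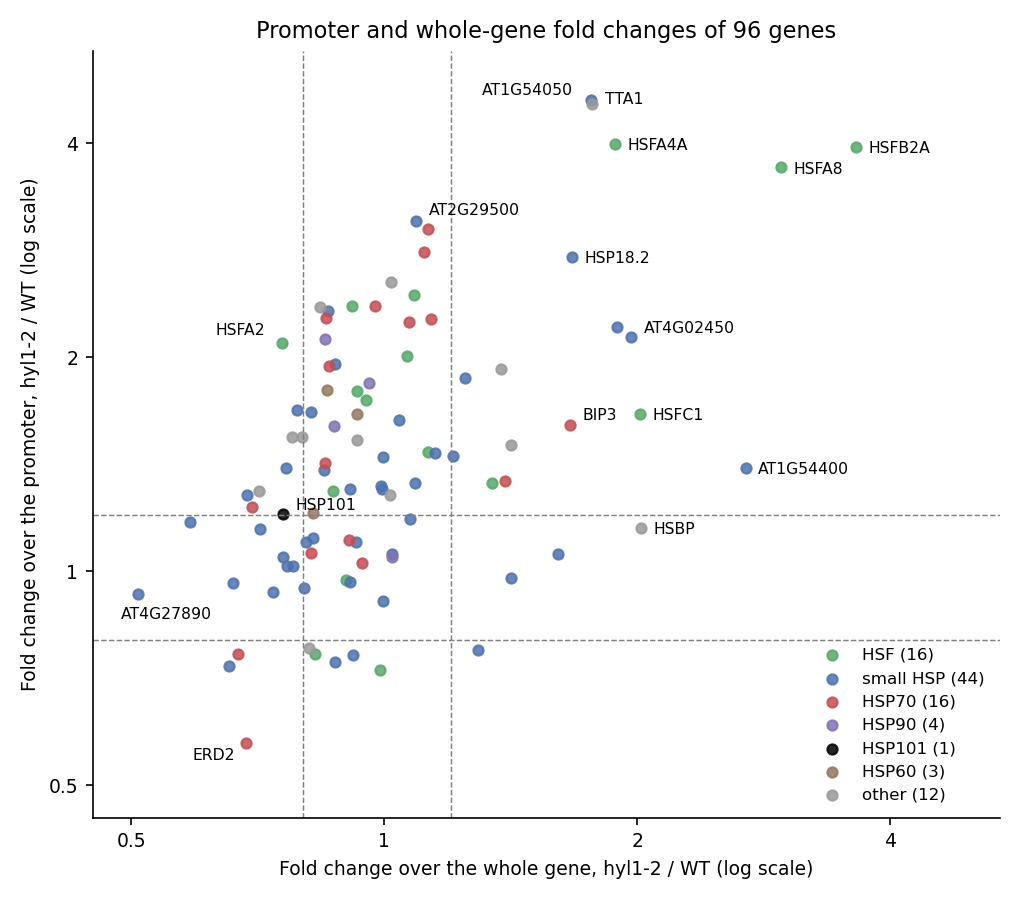
Fold change over the promoter (y axis) against that over the whole gene (x axis), *hyl1-2* over WT on log scales, for the 96 genes with at least 10 reads in every library in both windows. Points are genes coloured by family and dashed lines mark 0.8 and 1.2. Most points lie above the upper horizontal line, and HSFB2A and HSFA8 are far out on both axes.

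Among the HSF genes, HSFB2A stood out. It encodes a class B factor, a class that acts as repressors in Arabidopsis. The gene lies on the plus strand of chromosome 5 and its promoter is printed above. Over the gene, the inputs held 291 reads in WT and 331 in *hyl1-2*, and the ChIP libraries 433 and 1125, so the ChIP libraries parted while the inputs lay close. The ratio was 0.700 in WT and 2.55 in *hyl1-2*, a fold change of 3.65 (3.01–4.42), the highest of all members. Over the promoter the same libraries held 51, 80, 149 and 579 reads, with ratios of 1.37 and 5.43 and a fold change of 3.95 (2.66–5.87). No other member had a promoter ratio above 2 in *hyl1-2* (background 2.27%). In 100-bp bins, *hyl1-2* ChIP was higher than WT ChIP in 34 of 34 bins and was highest from 300 to 200 bp upstream, with 10.1 RPM against 1.81 in WT. Bins here and below used the deposited intervals, which extend toward higher coordinates on both strands, so peak positions are approximate. ARF2, on the same strand, ends 412 bp upstream of HSFB2A, and reads of its 3′ end and of the HSFB2A promoter cannot be told apart there.

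HSFA8 and HSFA4A encode class A factors. HSFA8 held 349 and 463 input reads and 551 and 1360 ChIP reads in WT and *hyl1-2* over the gene. Its ratio was 0.742 in WT and 2.20 in *hyl1-2*, a fold change of 2.97 (2.50–3.52). The promoter of HSFA8 held only 22 and 51 ChIP reads, with a fold change of 3.70 (1.88–7.28), and *hyl1-2* ChIP peaked from 1900 to 2000 bp, near the 3′ end of this gene of 2064 bp, with 5.84 RPM against 1.14. HSFA4A held 419 and 497 input reads and 979 and 1368 ChIP reads, with log2 ratios of 0.14 and 1.05 and a fold change of 1.88 (1.61–2.19). *hyl1-2* ChIP was above WT ChIP in 40 of 40 bins of HSFA4A, with the top from 800 to 900 bp. POD1, on the same strand, begins 2116 bp from the HSFA8 start. Reads of the POD1 promoter and of the HSFA8 end cannot be told apart there. HSFA8 and HSFA4A had their peak inside the annotated gene, where HSFB2A had it upstream.

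HSFC1 is the class C factor. With 254 and 361 input reads and 951 and 1707 ChIP reads, it had ratios of 1.76 and 3.55, the highest of all members in *hyl1-2*, and a fold change of 2.02 (1.69–2.41). A long non-coding RNA gene, AT3G24518, covers HSFC1 on the opposite strand, and ChIP reads cannot be told apart between them. HSFB1, a repressor that also shapes the heat response, had ChIP reads of 379 and 551 on inputs of 247 and 373, and a fold change of 1.54 (1.25–1.89).

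The class A1 factors, which start the heat response, had ChIP levels near their inputs over the gene. HSFA1A had a ratio of 0.739 in WT and 0.994 in *hyl1-2*, with a fold change of 1.34 (1.11–1.62). HSFA1B, HSFA1D and HSFA1E had whole-gene fold changes of 1.07 (0.910–1.25), 0.928 (0.804–1.07) and 0.917 (0.791–1.06), so their intervals held 1. At their promoters the same 3 genes had 2.01 (1.14–3.54), 1.79 (0.992–3.24) and 2.36 (1.31–4.28). HSFA2 was the only HSF below 0.8 over the gene, with 353 and 490 input reads, 920 and 605 ChIP reads and a fold change of 0.756 (0.637–0.897). Its promoter, printed above with its heat shock element, had 35 and 75 ChIP reads and a fold change of 2.10 (1.23–3.58), and lies partly inside the neighbouring gene AT2G26140.

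HSFA3, a factor downstream of DREB2A in the drought and heat response, had a whole-gene fold change of 1.08 (0.938–1.25) and a promoter fold change of 2.45 (1.55–3.86), with 65 and 142 ChIP reads. The *hyl1-2* peak lay in the last 100 bp before the start, with 2.85 RPM against 0.753, and CTR1, on the same strand, ends 34 bp upstream. HSFB3 and HSFA9, the latter a seed factor, were the HSFs with promoter values below 0.8, at 0.726 (0.428–1.23) and 0.766 (0.496–1.18), and neither interval left 1.

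**Figure D3:**
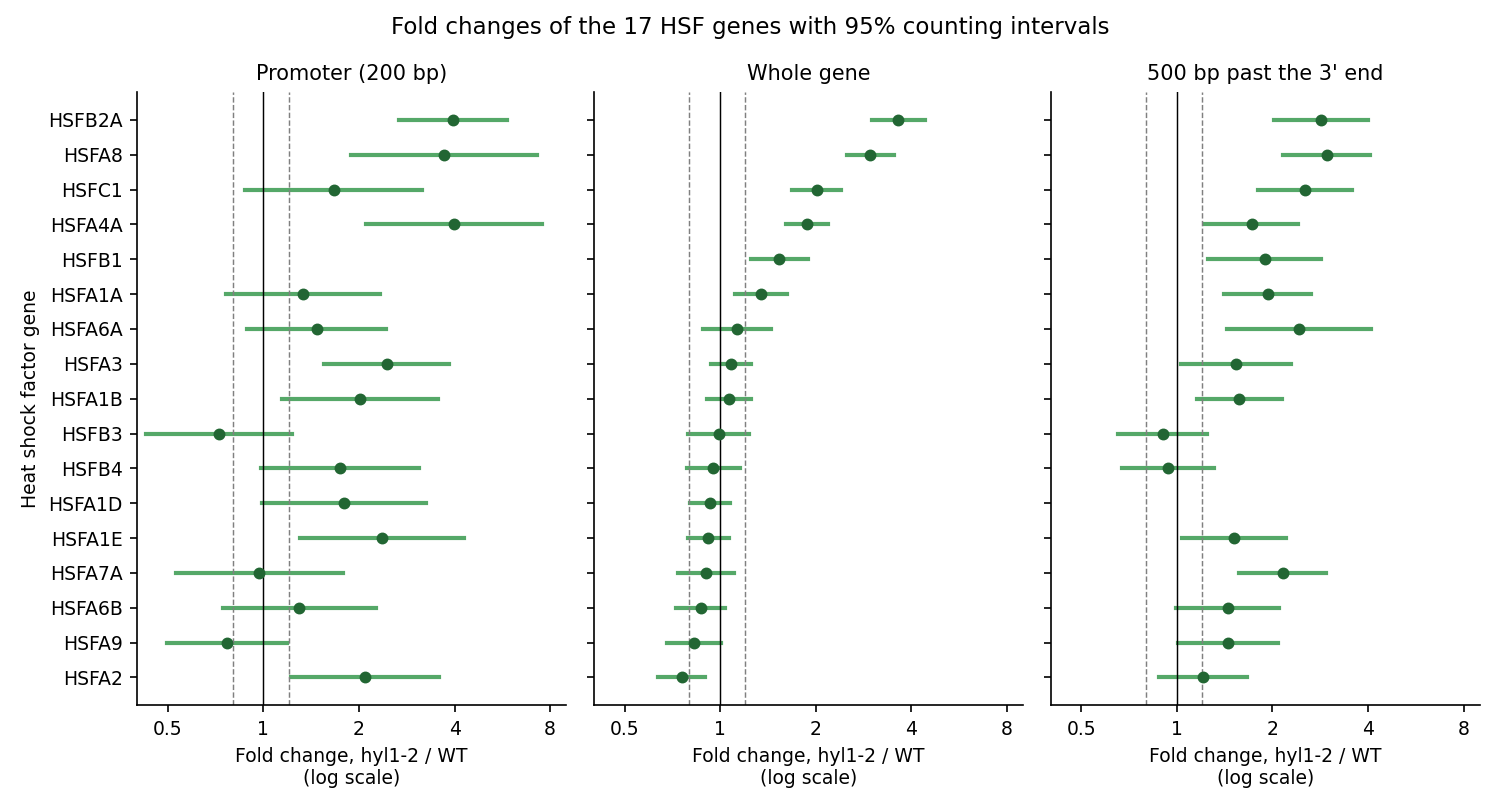
Fold change (*hyl1-2* over WT, log scale) of the 17 HSF genes over the promoter, the whole gene and the 500 bp past the 3′ end. Points are fold changes, bars 95% counting intervals from 4 read counts, dashed lines 0.8 and 1.2, and HSFB1 (promoter) and HSFA1D (past the end) are missing for having under 10 reads in a library. Over the gene 6 of 17 lie above 1.2, past the 3′ end 14 of 16.

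Past the 3′ end, calls above 1.2 were more frequent than over the gene across the genome, at 50.5% against 25.9% of all genes. In the 500 bp beyond the annotated end, 14 of 16 HSFs were above 1.2, and 12 had intervals wholly above 1, as 35.8% of all genes did. Whether the HSFs differ from other genes in this was not tested. HSFA7A had a fold change of 0.901 (0.735–1.11) over the gene and of 2.15 (1.57–2.95) past its end, with ratios of 0.691 and 1.49 there. HSFA6A had 1.13 (0.881–1.44) and 2.43 (1.44–4.10). Over all members, 50 of 97 (51.5%) were above 1.2 past the end and 9 (9.28%) were below 0.8, where the background was 50.5% and 12.3%, so the members as a whole lay at the background. Intervals lay wholly above 1 for 37 members and wholly below 1 for 4 (background 5.67%). Another annotated gene lay in that window for 60 of the 98 members. Centred on all genes, whose median here was 0.27 on the log2 scale, 29 members in place of 9 were below 0.8.

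Several chaperone genes held their highest occupancy beyond the annotated end in *hyl1-2*. AT1G54400 encodes an HSP20-like protein, and over the gene it held 181 and 242 input reads and 322 and 726 ChIP reads in WT and *hyl1-2*. Its fold change was 2.69 (2.13–3.40) over the gene, with ratios of 0.836 and 2.25, and 1.40 (0.844–2.32) over the promoter. Past the end it held 137 and 709 ChIP reads on 76 and 85 input reads, with ratios of 0.848 and 6.26 and a fold change of 7.39 (5.16–10.6). The top bin ran from 1700 to 1800 bp for a gene of 1275 bp, and the next annotated gene, AT1G54410 on the opposite strand, has its 3′ end at 1901 bp.

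HSP18.2 encodes a cytosolic class I small HSP, known for its strong heat induction. Over the gene it held 359 and 491 ChIP reads on 174 and 227 input reads, with ratios of 0.970 and 1.62 and a fold change of 1.67 (1.32–2.13). Past the end the ratios were 1.26 and 4.26 and the fold change 3.39 (2.54–4.53), with 275 and 783 ChIP reads and no other annotated gene in the window. EXO70H7, on the opposite strand, has its 3′ end just beyond that window, 1552 bp from the HSP18.2 start. Reads past the ends of both genes cannot be told apart there. The promoter fold change of HSP18.2 was 2.77 (1.65–4.66), so it was higher in all 3 windows. Of the 95 members tested in all 3 windows 13 were above 1.2 in each, 5 of them HSFs, where 18.9% of all genes were.

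HSP21, the chloroplast small HSP, and HSP23.6-MITO, the mitochondrial one, differed between windows. HSP21 had a fold change of 0.996 (0.802–1.24) over the gene and of 2.68 (1.89–3.80) past its end, where WT ChIP held 103 reads and *hyl1-2* ChIP 224. HSP23.6-MITO was lower over the gene, at 0.767 (0.609–0.966), and higher past the end, at 2.31 (1.63–3.28), in a window that AT4G25210 enters. HSBP, which binds HSFs and restrains them, held 360 and 552 ChIP reads over the gene and had a fold change of 2.02 (1.65–2.47). Past its end HSBP held 101 and 499 ChIP reads on 80 and 68 input reads, an input quotient of 0.662 (0.479–0.915), with ratios of 0.594 and 5.51 and a fold change of 9.28 (6.30–13.7), the highest in that window. The last bases of the HSBP window belong to a long non-coding RNA gene, AT4G06335, which begins 2526 bp from the HSBP start, while the *hyl1-2* peak lay from 2300 to 2400 bp. RALFL33, on the opposite strand, has its 3′ end at 2666 bp, and reads past its end and past the HSBP end cannot be told apart. Of the other members, AT5G09580 had 4.17 (2.96–5.88) past its end, where a U2 snRNA gene is annotated, and Hsp89.1, an HSP90, had 3.87 (2.71–5.53), where OBE1 begins.

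**Figure D4:**
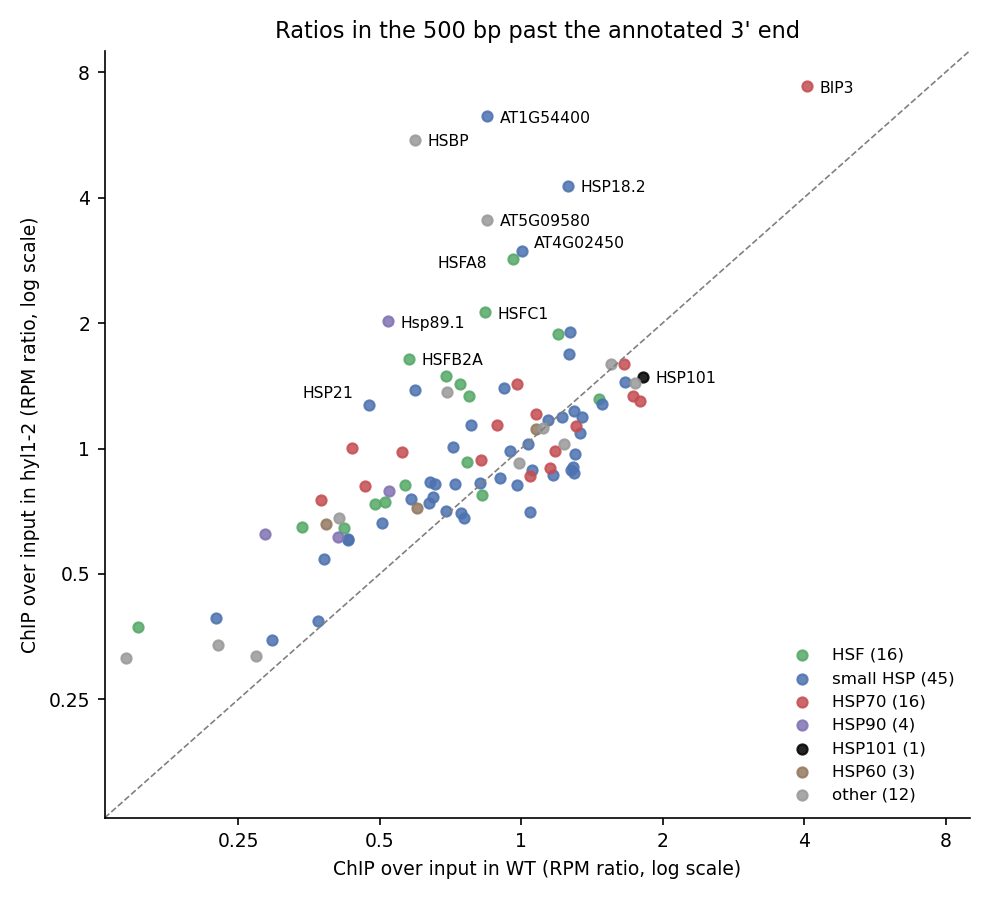
ChIP over input in the 500 bp past the annotated 3′ end, *hyl1-2* (y axis) against WT (x axis), RPM ratios on log scales, for 97 genes coloured by family. The dashed line marks equal ratios. BIP3 is highest in both genotypes at 4.05 and 7.39, and HSBP, AT1G54400 and HSP18.2 lie far above the line.

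The rest of the small HSPs showed no common direction. The 4 members with the lowest whole-gene fold changes were all small HSPs: AT4G27890 with 0.510 (0.407–0.638), AT5G47600 with 0.588 (0.444–0.780), HSP22.0 with 0.653 (0.513–0.831) and AT2G27140 with 0.661 (0.515–0.849). AT4G27890 held 176 and 312 input reads and 645 and 365 ChIP reads, and AT5G47600 held 124 and 234 input reads and 292 and 203 ChIP reads. Both genes had the highest input quotients of all members, with *hyl1-2* input over WT input at 1.38 (1.15–1.66) and 1.47 (1.18–1.83). Without division by input their log2 fold changes lay closer to 0, at −0.51 in place of −0.97 and −0.21 in place of −0.77.

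HSP22.0, the small HSP of the endoplasmic reticulum, was the only member below 0.8 in all 3 windows, where 2.45% of all genes were. It held 493 and 276 ChIP reads over the gene on inputs of 182 and 249. The class I gene HSP17.4, with 2 heat shock elements, had ratios of 1.34 and 1.46 and a fold change of 1.09 (0.826–1.44), and the class II gene HSP17.6II had 0.918 (0.708–1.19). AT3G10680, an HSP20-like gene, was among the 6 highest in WT with a ratio of 1.70, and had 1.36 in *hyl1-2*. AT2G29500 had one of the highest promoter fold changes, 3.11 (1.61–6.01), from 20 and 48 ChIP reads, and 1.09 (0.844–1.41) over the gene. AT4G02450 was higher over the gene, at 1.97 (1.66–2.33), with 641 and 1018 ChIP reads, but the gene EID1 overlaps its end and a long non-coding RNA gene lies inside it.

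AT1G54050 and TTA1 were named after their values were seen, since they had the highest promoter fold changes on few reads. AT1G54050, a small HSP, had 4.61 (2.35–9.03) from 16 and 44 ChIP reads, and TTA1, which is in the set through its product name, had 4.55 (2.27–9.12) from 15 and 50. Over the whole gene they had 1.76 (1.36–2.29) and 1.77 (1.51–2.07).

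Of the HSP70 genes, only BIP3 and BIP1, both of the endoplasmic reticulum, were above 1.2 over the gene. BIP3 held 428 and 521 input reads and 1910 and 2424 ChIP reads over the gene, with ratios of 2.10 and 3.49 and a fold change of 1.66 (1.45–1.92). Its WT ratio was above those of 98.8% of all genes. The reads lay towards the end of the gene: the first 200 bp had log2 ratios of −0.09 and 0.13, while the 500 bp past the end had ratios of 4.05 and 7.39. SRC2 lies on the opposite strand from 2743 bp of the BIP3 start and reads of the 2 genes cannot be told apart there. BIP1, a constitutive relative, had a fold change of 1.39 (1.22–1.59), but 46.7% of its reads had mapping quality 0, so its reads are uncertain. BIP2 had 1.14, with an interval that held 1, and 46.9% of its reads had mapping quality 0.

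The cytosolic members Hsp70b, ERD2 and HSP70-4 had whole-gene fold changes below 1. Hsp70b, a heat-induced gene, held 359 and 541 input reads and 1224 and 804 ChIP reads, with ratios of 1.60 and 1.12 and a fold change of 0.696 (0.593–0.817). ERD2 had ratios of 1.72 and 1.18 and a fold change of 0.686 (0.577–0.814) over the gene. ERD2 also had the lowest promoter value of all members, 0.574 (0.362–0.908), from 129 and 57 ChIP reads, which became −0.10 in place of −0.80 on the log2 scale when reads were counted by their midpoint. HSP70-4 had a whole-gene fold change of 0.860 (0.738–1.00) and a promoter fold change of 1.94 (1.17–3.21). AT4G16660 had the highest promoter value among HSP70s, 3.04 (1.69–5.45), from 27 and 58 ChIP reads, and a whole-gene value of 1.13 with an interval just above 1. AT3G09440 had a promoter value of 2.81 (1.49–5.30). AT4G32208, with ratios of 1.71 and 1.15, had 79.6% of its reads at mapping quality 0, which is sequence shared with other places.

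HSP101, the disaggregase that plants need to survive severe heat, was lower in *hyl1-2* over the gene. The inputs held 557 reads in WT and 746 in *hyl1-2*, and the ChIP libraries 1950 and 1239, so the larger ChIP count was that of WT. The ratios were 1.65 and 1.25 and the fold change 0.757 (0.664–0.863), and the promoter had 45 and 47 ChIP reads and a log2 fold change of 0.27, just past the threshold, with an interval from 0.685 to 2.11 in fold. Along the gene, *hyl1-2* ChIP was higher in 15 of 54 bins. The cytosolic HSP90 genes HSP81-2 and HSP81-3 had 1.02 (0.885–1.18) and 0.959 (0.827–1.11), with 34.6% and 42.9% of their reads at mapping quality 0. Past the 3′ end, all 4 HSP90 genes were above 1.2 (background 50.5%), with log2 fold changes from 0.59 to 1.95, and 3 of the 4 intervals lay above 1. The inputs differed there too, with *hyl1-2* input over WT input at 0.748 (0.566–0.988) for Hsp89.1 and 0.712 (0.548–0.926) for HSP81-3, and a lower *hyl1-2* input raises the fold change. Both windows also hold the start of another gene on the same strand. These are OBE1 for Hsp89.1 and AT5G56020, which begins 3148 bp from the HSP81-3 start, for HSP81-3. Reads of the neighbouring genes cannot be told apart there. The HSP60 genes HSP60, HSP60-2 and HSP60-3A had 0.855 (0.749–0.977), 0.823 (0.723–0.938) and 0.928 (0.814–1.06) over the gene.

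**Figure D5:**
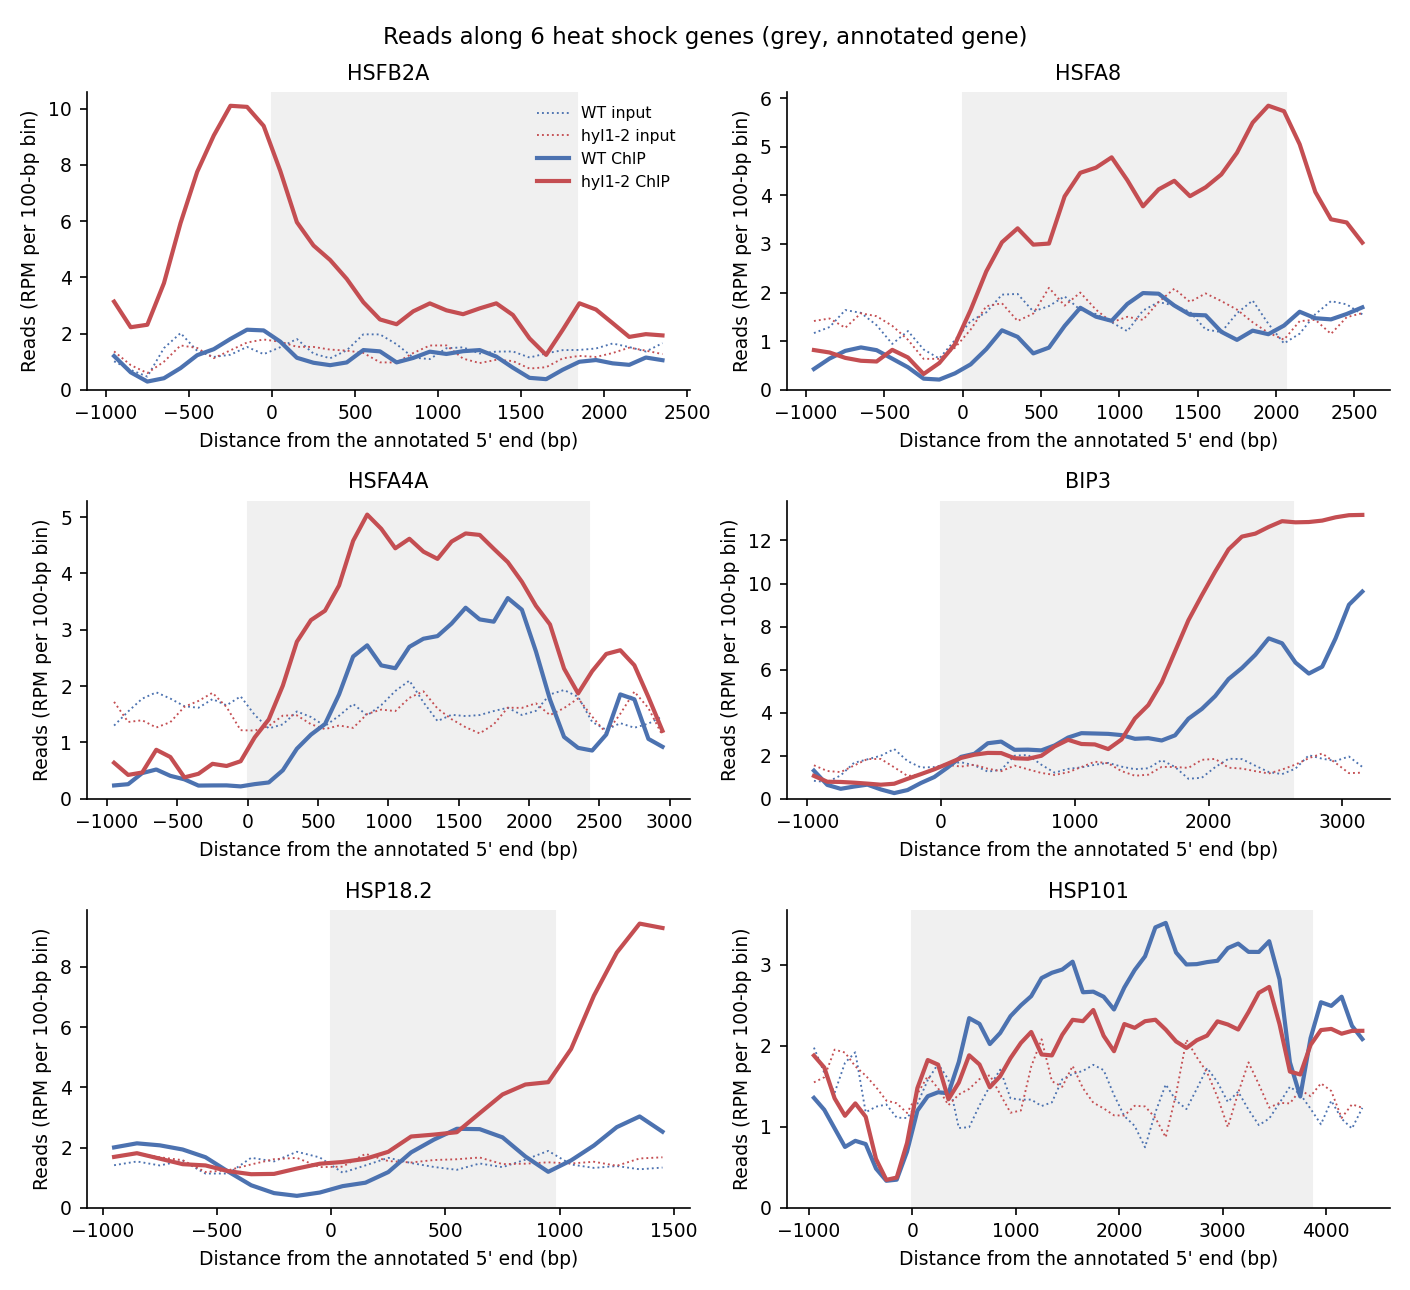
Reads (RPM per 100-bp bin) along 6 genes by distance from the annotated 5′ end, as ChIP (solid) and input (dotted) in WT (blue) and *hyl1-2* (red), with the annotated gene in grey. HSFB2A peaks upstream of its start, BIP3 and HSP18.2 are highest past their ends, and HSP101 is higher in WT over most of the gene.

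Positions along the gene were compared next. The ratio past the 3′ end was above that over the gene in 32 of 97 members in WT (background 30.6%) and in 41 in *hyl1-2* (background 43.3%), so in most members the whole-gene ratio was the higher one. Over the promoter of HSFB2A the ratio was above that over the gene in both genotypes, which no other HSF showed in WT.

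The inputs of the genotypes were alike at most members. The quotient of *hyl1-2* input over WT input over the gene had a median of 1.03 and ranged from 0.828 to 1.47, and its interval left 1 in 9 of 98 members, 7 of them small HSPs, where it did in 5.31% of all genes. GC content was 39.4% at the median of the 22 higher members, 39.5% in the 56 between the thresholds and 40.6% in the 20 lower ones. Across the 98 genes, Spearman's rho of GC content with the log2 ratio was 0.47 in WT and 0.37 in *hyl1-2*, and with the log2 fold change it was −0.16, as a description over genes that share the libraries. With fold changes corrected for GC content, 22 members were above 1.2 and 17, in place of 20, were below 0.8 over the gene, and 62 and 8, in place of 63 and 9, over the promoter.

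Other genes of the heat shock pathway were taken from a list of 26 loci, of which 5 were members and 21 were not. Over the whole gene, 7 of these 21 were above 1.2 and 4 below 0.8, and over the promoter 16 were above 1.2 and 2 below 0.8, against the same backgrounds of 25.9%, 21.4%, 58.6% and 11.7%. DREB2A, the transcription factor that induces HSFA3, had whole-gene ratios of 2.40 and 5.87 and a fold change of 2.45 (2.10–2.86), and 4.22 (2.54–7.04) over the promoter. TIL, a temperature-induced lipocalin, had 2.83 (2.33–3.44), GolS1, which makes galactinol, 2.53 (2.09–3.07), and MBF1C, a heat-induced coactivator, 2.11 (1.64–2.72). HSA32 and CLPB4, a relative of HSP101 in organelles, were lower, at 0.758 (0.625–0.920) and 0.743 (0.657–0.840), as HSP101 was. CLPB3, another such relative, had 0.949 (0.836–1.08), an interval that held 1. The other genes of the list below 0.8 were Hop3, at 0.760 (0.654–0.883), and AT5G48570, at 0.7997 (0.695–0.920). HSC70-1, a constitutive cytosolic HSP70 outside the naming rule, had ratios of 1.07 and 2.12 and a fold change of 1.99 (1.72–2.30), where the cytosolic members Hsp70b, ERD2 and HSP70-4 were below 1.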

How the data were processed

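Leaves of WT and *hyl1-2* plants gave 1 input and 1 RNA Pol II ChIP library each. Per the labels and methods, the authors trimmed reads to a common length, aligned them with Bowtie to TAIR10, keeping reads with several matches at one of them, removed duplicates with SAMtools and extended the reads. The authors deposited 1 line per read with a mapping quality score of 0 or 255, and no normalized values. Extension was toward higher coordinates on both strands. Input intervals were 175 bp and ChIP intervals 200 bp, and the shortest were 50 and 75 bp, so the deposited reads may not have had a common length. The inputs held 17734005 (WT) and 22766187 (*hyl1-2*) reads, of which 14.4% and 14.3% had mapping quality 0. The ChIP libraries held 37717174 and 30333558, with 14.5% and 11.9%.

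A read counted in each window it shared 1 bp or more with, using Python 3.11.15, NumPy 2.4.6 and pandas 2.3.3. Windows were the promoter (200 bp before the annotated 5′ end), the whole gene and the 500 bp past the 3′ end. Intervals (95%) come from the 4 counts on the log scale and cover counting error only. The fold change and its interval were tested on simulated counts. The counting was checked by a recount of 200 promoter windows, with 0 differences. No test between genotypes was made, since there was 1 library per condition. Alternatives were other totals and scalings, mapping quality, midpoint counting, strand-wise extension, no input, other read minimums and thresholds, a GC correction and another promoter window.

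The members and lists were chosen with earlier results of these data known. Named were the 6 highest and 4 lowest whole-gene fold changes, the 6 highest ratios in each genotype (at least 50 reads per library), the 4 highest and 2 lowest promoter fold changes (at least 20 reads) and members known for their role. AT1G54050, TTA1, AT5G09580, Hsp89.1, BIP1, BIP2, AT1G53540, AT3G09440, HSFA6A, HSFA7A, HSFA9 and the HSP60 genes were named after their values were seen. TTA1 was placed with the other genes and the gene named heat shock protein 91 with the HSP70s. HSFB2B, HSP90.1 and HSP90.5 are not members by the naming rule.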

Additional observations from a re-analysis of the deposited data

How the results depend on the processing

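No paired analysis was possible because each genotype had 1 library of each kind and no replicate numbers, and no replicate could be left out for the same reason. Counting error was the only error that could be given, and promoters rested on few reads. No median or gene value whose main interval excluded no change reversed its direction under the alternatives tried for it. Values of named genes were run under only some of the alternatives. A count was said to stay if it was within 1.5-fold of the main count, and a median or gene value if it lay inside its main interval. For a gene value and for HSP101 this was the counting interval. For the other medians it was taken from the ranks of the member genes, or was their full range in the HSP90s and HSP60s. That interval shows the spread between genes, which are not replicates, and gives no error between plants or libraries. Many promoter intervals are wide, so a gene value can stay by this rule after a sizeable shift. Of the counts and medians of members, 83 stayed by this rule and 19 moved. Of the values of named genes 673 stayed and 4 moved, in each case with the cause not tested. Centred on all genes, the promoter had 38 members above 1.2 and 25 below 0.8 with a median of 0.068, and past the 3′ end 29 were below 0.8 with a median of 0.051. On intergenic scaling 16 members were below 0.8 past the end, and with midpoint counting 15. On the log2 scale, intergenic scaling gave WT medians of 0.86 (small HSP), 1.13 (HSP70), 0.91 (HSP90), 1.497 (HSP101), 1.00 (HSP60), 0.76 (HSF) and 0.68 (other), and *hyl1-2* medians of 0.65, 0.90, 0.83, 1.04, 0.71, 0.77 and 0.87. The WT median of HSP60 was 0.21 with nuclear reads as the total and 0.21 with strand-wise extension, that of small HSPs 0.21 with midpoint counting, and the *hyl1-2* median of HSP90 0.31 without mapping quality 0. Without input, 5 members were below 0.8 over the promoter. With at least 50 reads, which left fewer members, 17 were above and 5 below with a median of 0.25. With a threshold of 1.5 in either direction, 1 member was lower over the promoter, 14 were higher and 4 lower over the gene, and 33 were higher and 0 lower past the end. Counted by intervals apart from 1, 29 were higher and 1 lower over the promoter, and 4 lower past the end.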
